A study of Mus musculus with 7 samples.

Results

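The 6 transfer RNAs mt-Ts1, mt-Ty, mt-Tc, mt-Tn, mt-Ta and mt-Tq are encoded on the light strand of the mouse mitochondrial genome beyond mt-Nd6, the only mRNA of that strand. They were chosen by position and strand, and all 6 were found among 49584 listed features, of which 36 are mitochondrially encoded and 22 are mitochondrial tRNAs. Their counts were compared in small RNA libraries of crude heart mitochondria from 3 control mice and 4 mice lacking Tefm in muscle. Control mice (labelled L/L, genotype Tefm +/+) carried Tefm with 1 exon between loxP sites and no cre. Knockout mice (labelled L/L, cre, genotype Tefm -/-) carried the same alleles and a cre under the creatine kinase promoter of muscle. This promoter works in cardiomyocytes and skeletal muscle, so other heart cells would keep the gene. The sources used here do not state the age of the mice. The design text counts 4 control mice, and 3 control libraries were analysed here. A library was taken to stand for 1 mouse. Where that does not hold, p-values measure only the spread between libraries.

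The mitochondrial genome is copied into RNA from both strands as long precursors, and tRNAs are cut out of them at their ends by RNase P and RNase Z. TEFM binds the mitochondrial RNA polymerase and helps it to stay on the template over long distances. The light-strand transcript starts in the control region and runs past mt-Tp, mt-Te and mt-Nd6 before it reaches these tRNAs, so their genes lie far from the promoter that serves them. Of these tRNAs, 4 (tyrosine, cysteine, asparagine and alanine) form a compact cluster. In it, the origin of light-strand DNA replication folds into a hairpin between the genes for asparagine and cysteine. The tRNAs carry amino acids to the mitochondrial ribosome, which makes subunits of the respiratory chain.

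The sequences of the 6 genes are shown because they define what the reads were assigned to. They are given as DNA, 5′ to 3′ in the sense of the tRNA, in order of transcription from the light-strand promoter, with the anticodon in capitals (GENCODE M21 transcripts, GRCm38). The CCA end is added after cutting and is not encoded.
mt-Ts1: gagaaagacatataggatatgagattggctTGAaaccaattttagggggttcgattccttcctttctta
mt-Ty: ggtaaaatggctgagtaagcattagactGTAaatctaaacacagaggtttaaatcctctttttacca
mt-Tc: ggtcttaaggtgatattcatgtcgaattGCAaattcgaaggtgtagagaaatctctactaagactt
mt-Tn: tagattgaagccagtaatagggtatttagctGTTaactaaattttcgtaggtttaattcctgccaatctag
mt-Ta: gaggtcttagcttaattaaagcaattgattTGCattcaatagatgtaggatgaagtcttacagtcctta
mt-Tq: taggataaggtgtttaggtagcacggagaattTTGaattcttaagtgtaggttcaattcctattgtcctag

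All lie on the minus strand of chromosome M. mt-Ts1, the serine tRNA that reads UCN codons, spans 6870 to 6938. The cluster holds mt-Ty (tyrosine, 5260 to 5326), mt-Tc (cysteine, 5192 to 5257), mt-Tn (asparagine, 5089 to 5159) and mt-Ta (alanine, 5018 to 5086). mt-Tq, the tRNA for glutamine, spans 3772 to 3842. Between mt-Tn and mt-Tc lie the 32 bases of the replication origin (5160 to 5191), while mt-Ty and mt-Tc, like mt-Tn and mt-Ta, are 2 bases apart. From the end of mt-Nd6 to the start of mt-Ts1 the transcript crosses 6613 bases without a light-strand gene. The genes are 66 to 71 bases long with 33.3% to 37.7% G and C, and any pair of them is at most 60.9% identical. mt-Ts1 overlaps the end of mt-Co1 by 3 bases and mt-Tq overlaps mt-Ti by 3 bases, in both cases on the opposite strand. The sources used here do not say whether counting used strand, so reads of the tRNA and of heavy-strand RNA at the same place cannot be told apart.

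Libraries held 973835 to 2570739 counts, of which 64.6% to 88.1% were mitochondrially encoded. Tefm itself had 3 counts over the controls and 3 over the knockouts, so its loss could not be checked. All 10 cardiomyocyte markers were detected, with summed levels of 4712 to 6962 CPM in controls and 2576 to 4473 CPM in knockouts. In the same order, summed markers ranged over 11.4 to 19.2 and 5.02 to 18.3 CPM for erythroid cells, 34.2 to 50.6 and 14.5 to 27.1 for white blood cells, 70.5 to 136 and 28.1 to 74.7 for endothelium, and 235 to 413 and 194 to 584 for fibroblasts. Liver markers reached at most 0.392 and 3.05 CPM, with Apoa1 at 0, and neural markers at most 1.57 and 1.53 CPM, with Snap25 and Syt1 at 0. The libraries also differed in composition within each group. On the log2 scale, microRNAs and snoRNAs together over nuclear protein-coding genes gave 2.88, -1.35 and 0.61 in controls 1 to 3 and 1.84, 3.11, 0.54 and -2.44 in knockouts 1 to 4.

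As a share of mitochondrial tRNA counts, the 6 tRNAs together were lower in every knockout than in every control. They made up 17.4%, 9.83% and 9.36% of mitochondrial tRNA counts in controls 1 to 3, and 4.64%, 3.53%, 2.77% and 2.32% in knockouts 1 to 4. The groups did not overlap, and control 1 stood above the other controls. On the log2 scale the SD of this share was 0.498 in controls and 0.434 in knockouts. The means were 12.2% ± 4.53 (SD, n = 3) and 3.32% ± 1.01 (SD, n = 4), a 3.68-fold lower share. Behind them were 30474 to 59715 counts in controls and 9168 to 17457 in knockouts, so the 95% Wilson interval of a single library was at most 0.254 percentage points wide and covers counting error alone. No p is given for this sum, since the tRNAs were grouped with earlier results of these data known. A change that scales all mitochondrial tRNAs alike leaves this share as it was, and a share falls where others rise. In bulk material, a different mix of cells and a change within cells cannot be told apart. For levels, fewer mitochondria or cells and less RNA in each cannot be told apart either.

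**Figure D1:**
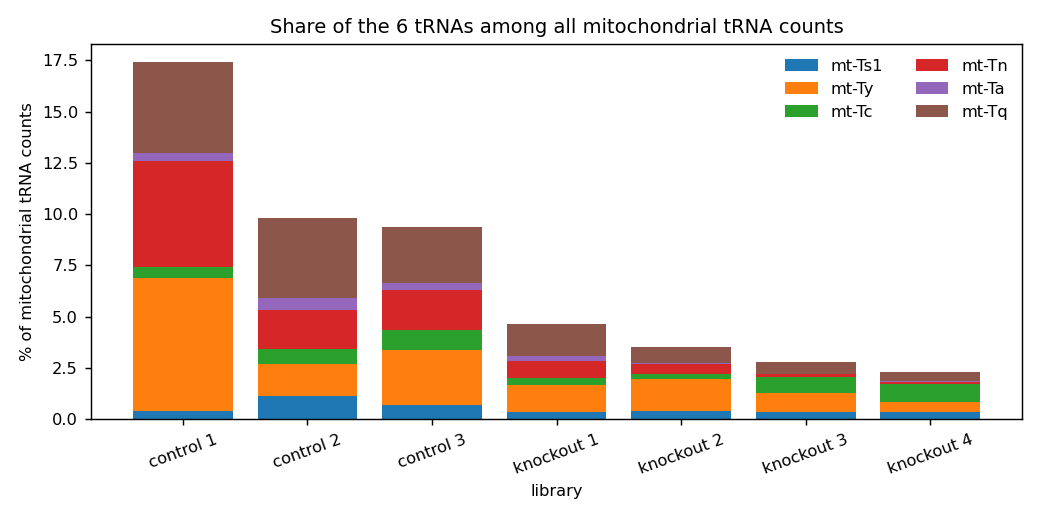
Stacked bars give each of the 6 tRNAs as a percentage of all mitochondrial tRNA counts (vertical axis) in each library (horizontal axis). Bars reach 9.36% to 17.4% in the 3 controls and 2.32% to 4.64% in the 4 knockouts, and the segments of mt-Tn and mt-Ta nearly vanish in knockouts 3 and 4.

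Against all mitochondrially encoded counts the difference was smaller and the groups overlapped. That share was 5.45%, 1.39% and 2.41% in controls 1 to 3 and 1.54%, 1.16%, 1.44% and 1.37% in knockouts 1 to 4. Control 2 lay within the knockouts' range. In the library of control 1, mt-Co1, subunit 1 of cytochrome c oxidase, had 32409 counts, against 405030 and 218505 in controls 2 and 3 and 5693 to 14576 in knockouts.

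By single tRNA, 5 of the 6 were lower in share without overlap, which 59.1% of all 22 mitochondrial tRNAs were too, while 0 of the 6 and 18.2% of the 22 were higher. mt-Tn went from 3.0% ± 1.86 of mitochondrial tRNA counts (SD, n = 3) to 0.38% ± 0.346 (SD, n = 4), and mt-Ta from 0.433% ± 0.132 to 0.0858% ± 0.0928. By mean log2 share these were the 2 largest decreases among the 22, at -3.38 and -2.84. mt-Tq went from 3.71% ± 0.876 to 0.843% ± 0.496, and mt-Ty from 3.57% ± 2.57 to 1.06% ± 0.471. The last of the 5, mt-Ts1, was at 0.741% ± 0.348 in controls and a nearly constant 0.364% ± 0.0332 in knockouts. mt-Tc was the exception, with 0.754% ± 0.207 and 0.581% ± 0.317 and overlapping groups. The median difference in log2 share was -1.96 for the 6 tRNAs, -1.38 for all 22 and -1.19 for the other 16. Those 16 were mixed, with 8 lower and 4 higher without overlap. Among them the heavy-strand tRNAs mt-Tr and mt-Tl1 had -2.51 and -2.38, larger decreases than those of 4 members.

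**Figure D2:**
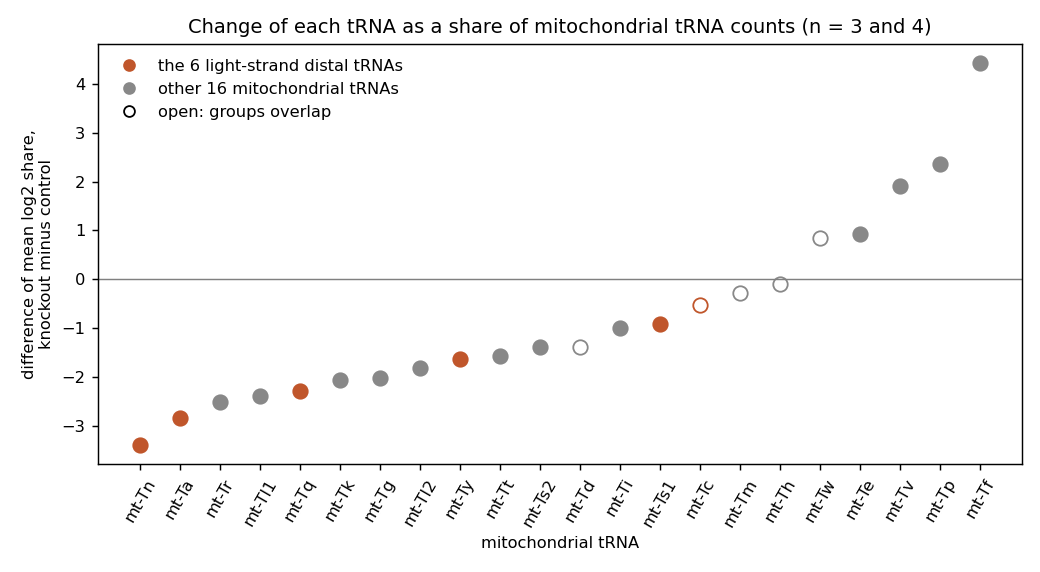
Each point is 1 mitochondrial tRNA, ordered along the horizontal axis by the difference between knockouts and controls in mean log2 share of mitochondrial tRNA counts (vertical axis). mt-Tn and mt-Ta are the lowest at -3.38 and -2.84, while mt-Ts1 and mt-Tc, at -0.92 and -0.53, rank 14 and 15 of the 22 from the lowest.

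The level of each tRNA was then compared between libraries in CPM, counts relative to a library size adjusted by TMM, which assumes that most genes do not differ. mt-Tn stood at 17741, 2287 and 6096 CPM in controls 1 to 3 and at 4738, 1341, 319 and 109 CPM in knockouts 1 to 4. Knockouts 2, 3 and 4 were below every control, whereas knockout 1 lay above control 2. The means of 8708 ± 8051 (SD, n = 3) and 1627 ± 2143 (SD, n = 4) gave a log2 fold change of -2.42 ± 1.31 (SE), which did not pass the edgeR quasi-likelihood test (adjusted p = 0.304 over all genes).

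mt-Ta, whose gene adjoins mt-Tn, had 1394, 701 and 986 CPM in controls and 1284, 165, 68.7 and 41.9 CPM in knockouts 1 to 4. Knockout 1 was at the level of the controls and the other 3 knockouts were all below them. The log2 fold change was -1.40 ± 1.17 (SE), with an edgeR adjusted p of 0.521. Without knockout 1 it was -3.46 ± 0.78 (adjusted p = 0.0538, edgeR), whereas it was -0.88 without knockout 3 and -0.85 without knockout 4. The fold change of mt-Tn ranged from -3.82 without knockout 1 to -1.49 without control 1.

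mt-Tq, the last gene of the group, had 15352, 4792 and 8533 CPM in controls and 8958, 2208, 1406 and 584 CPM in knockouts. Again knockout 1 fell among the controls and the other 3 lay below them. Its log2 fold change was -1.54 ± 1.01 (SE), with an edgeR adjusted p of 0.395. With 1 library left out it ranged from -2.73 without knockout 1 to -1.03 without knockout 4.

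mt-Ty, the first tRNA of the cluster, had 22294, 1907 and 8325 CPM in controls and 7644, 4259, 2344 and 587 CPM in knockouts. The controls alone spanned 11.7-fold, and 3 knockouts were above control 2. Its log2 fold change was -1.55 ± 1.07 (SE), with an edgeR adjusted p of 0.425, and it ranged from -2.15 without control 2 to -0.59 without control 1.

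mt-Ts1 and mt-Tc differed least. mt-Ts1 had 1433, 1347 and 2172 CPM in controls and 1894, 1134, 934 and 441 CPM in knockouts. Its log2 fold change was -0.58 ± 0.65 (SE), with an edgeR adjusted p of 0.644. mt-Tc had 1887, 917 and 2984 CPM in controls and 2144, 699, 2027 and 1129 CPM in knockouts, and its log2 fold change was -0.36 ± 0.69 (SE), with an edgeR adjusted p of 0.820. For mt-Ts1, knockout 1 lay within the range of the controls and the other 3 knockouts below it. For mt-Tc, 3 knockouts lay within the range of the controls and knockout 2 below it. With 1 library left out, the log2 fold change of mt-Ts1 ranged from -0.97 (without knockout 1) to -0.20 (without knockout 4), and that of mt-Tc from -0.88 (without control 2) to -0.029 (without control 3).

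**Figure D3:**
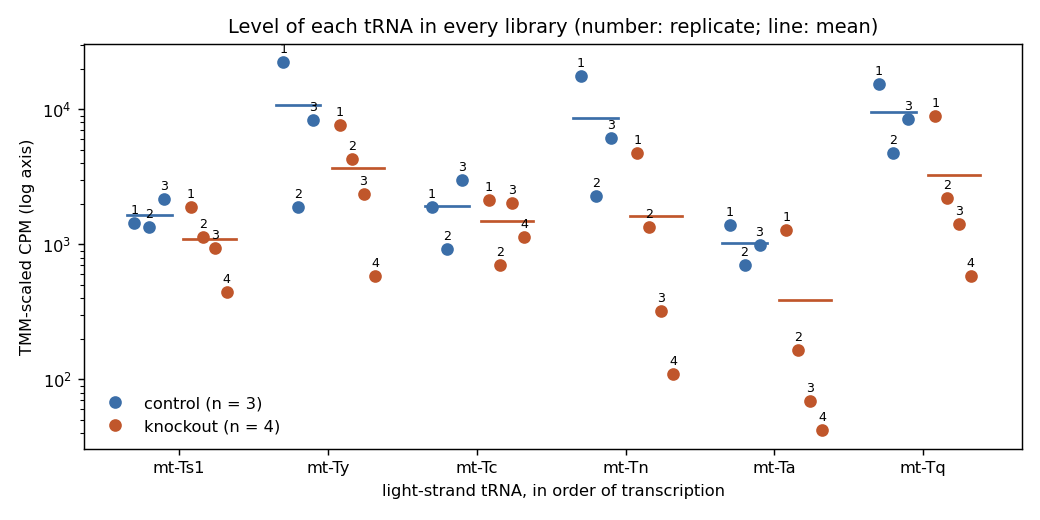
Points give the TMM-scaled CPM (log axis) of each tRNA in each library, numbered by replicate, with a line at the group mean (3 controls, 4 knockouts). For mt-Ts1, mt-Tn, mt-Ta and mt-Tq, knockout 1 lies within the range of the controls and knockouts 2 to 4 below all of them, while for mt-Tc 3 knockouts lie within that range.

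No member passed the test over all genes. On simulated data the same fit recovered 39% of genes with a log2 change of 2 and 63% at 3, so a tRNA not called may still differ. Those genes were drawn at random from all genes tested. The rates are thus not those of the 6 tRNAs, whose SE was 0.65 to 1.31. The edgeR test called 0 of the 6, with 0 at an unadjusted p under 0.05, where 6.98% of 1505 genes tested were called (1.73% as lower) and 23.5% had such an unadjusted p. DESeq2 also called 0 of the 6, with mt-Tn alone at an unadjusted p under 0.05. Of 15822 genes it fitted, 754 had such an unadjusted p. It called 1.13% of all genes fitted (0.474% as lower), or 1.68% as lower among the 4468 with an adjusted p. None of the 6 had CPM groups without overlap, against 9.9% of all genes that were lower and 14% that were higher in that sense. All 6 fold changes were negative, with a median of -1.47 beside 0.02 over all genes, of which 49.3% were negative. The sign of mt-Tc turned under scaling to total counts (0.53), to mitochondrially encoded genes (0.86) and to microRNA genes (0.48), and that of mt-Ts1 under scaling to mitochondrially encoded genes (0.28). These scalings put the median of all genes at 0.89, 1.25 and 0.65. The other 4 tRNAs stayed negative under each of the 5 scalings tried.

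With the log2 ratio of small RNA to protein-coding counts as a covariate, 3 of the 6 were called as lower. In that fit 11.6% of all genes were called as lower and 24.7% in either direction. Of the 36 mitochondrially encoded features, these 3 included, 22 were called in either direction, so calls were not particular to the 6 tRNAs. In log2 units, mt-Tn fell by 2.75 (adjusted p = 0.0131, edgeR), mt-Tq fell by 1.77 (adjusted p = 0.0492, edgeR) and mt-Ty fell by 1.39 (adjusted p = 0.0471, edgeR). mt-Ta had -1.95 ± 0.84 (SE), with an edgeR adjusted p of 0.110. The calls depended on single libraries. In that fit, 5 of the 6 were called without control 1 and 4 without knockout 1, while mt-Tn alone was called without control 2, control 3 or knockout 2, and 0 were called without knockout 3 or knockout 4. Of all genes tested in these fits, 463 of 2339 were called without control 1 and 398 of 1628 without knockout 1. The calls were 263 of 2250, 348 of 2355 and 197 of 1463 without control 2, control 3 and knockout 2. Without knockout 3 and knockout 4 they were 199 of 1246 and 181 of 1201. At an unadjusted p under 0.05 (edgeR) this last pair of fits had 1 and 2 of the 6, against 422 and 370 of all genes.

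**Figure D4:**
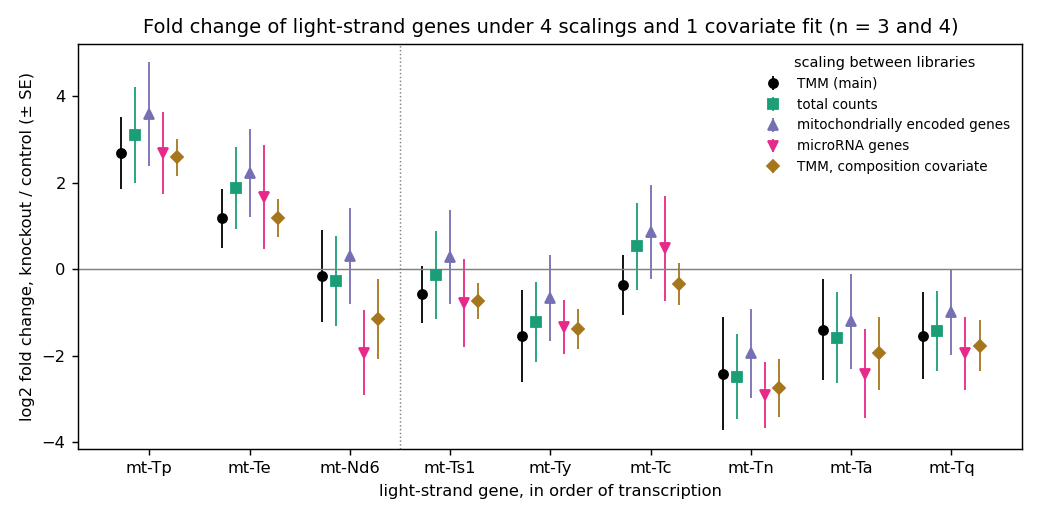
Points give log2 fold changes of knockouts over controls with their SE (vertical axis) for 9 light-strand genes in order of transcription (horizontal axis), under 4 scalings between libraries and 1 fit with a composition covariate. The 6 tRNAs right of the dotted line are near or below 0, with mt-Tc above 0 under 3 scalings, whereas mt-Tp and mt-Te to the left are above 0 under each.

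Ratios between neighbouring genes within a library do not depend on the scaling. Of 11 such ratios, 4 had groups without overlap, 1 had an exact p under 0.05 and 0 passed after adjustment over the 11 (lowest adjusted p = 0.157). The 1 was the step from mt-Te, the tRNA for glutamate, to mt-Ts1, the next light-strand tRNA, with mt-Nd6 and 6613 bases between them. The log2 ratio of mt-Te to mt-Ts1 was 2.12, 1.33 and 1.12 in controls 1 to 3 and 3.24, 2.82, 3.45 and 3.99 in knockouts 1 to 4. All knockouts were above all controls, by 1.85 on average (3.62-fold; two-sided exact permutation test, p = 0.0286, the lowest value this test can give here). Relative to mt-Nd6, which lies between them, mt-Ts1 did not separate the groups, with log2 ratios of 2.01, 0.28 and 0.52 in controls 1 to 3 and 0.059, -0.23, 1.42 and 2.73 in knockouts 1 to 4. The step from mt-Tp to mt-Te differed by 1.42 without overlap (p = 0.0571, exact permutation).

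Within the group the steps from each tRNA to the next did not separate controls from knockouts. The log2 ratio of mt-Ts1 to mt-Ty went from -2.13 ± 1.74 (SD, n = 3) to -1.42 ± 0.73 (SD, n = 4), and that of mt-Ty to mt-Tc from 2.03 ± 1.34 to 0.93 ± 1.60. The ratio of mt-Tn to mt-Ta, 2 bases apart, went from 2.67 ± 0.98 to 2.12 ± 0.69, and that of mt-Ta to mt-Tq from -3.12 ± 0.34 to -3.67 ± 0.64. Their exact permutation p-values lay between 0.229 and 0.514. A p of this size does not show that the ratios are equal. The SD of both groups exceeded the difference between the means for mt-Ts1 to mt-Ty, mt-Ty to mt-Tc and mt-Tn to mt-Ta. For mt-Ta to mt-Tq, with a difference of -0.556, the SD of the knockouts alone exceeded it.

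Across the replication origin, the ratio of mt-Tc to mt-Tn divided the knockouts. Its log2 value was -3.23, -1.32 and -1.03 in controls 1 to 3 and -1.14, -0.94, 2.67 and 3.37 in knockouts 1 to 4. Knockouts 1 and 2 were at the level of controls 2 and 3, whereas in knockouts 3 and 4 mt-Tc exceeded mt-Tn several-fold. The group means differed by 2.85 (p = 0.171, exact permutation). Knockouts 3 and 4 also had the 2 lowest small RNA to protein-coding ratios of the knockouts (log2 0.54 and -2.44). Controls 2 and 3 had log2 values of -1.35 and 0.61 in that measure, with mt-Tc below mt-Tn in both. mt-Tm, the heavy-strand tRNA for methionine, took 43.5% and 57.0% of mitochondrial tRNA counts in knockouts 3 and 4. It took 9.95% and 2.88% in knockouts 1 and 2 and 9.07% to 38.1% in controls. The part of library composition in this ratio was not tested.

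Against a neighbouring heavy-strand tRNA, mt-Ta relative to mt-Tw and mt-Tq relative to mt-Ti were lower in every knockout than in any control, while mt-Tq relative to mt-Tm and mt-Ts1 relative to mt-Td overlapped. mt-Tw, the tRNA for tryptophan whose gene ends 1 base from that of mt-Ta, had a log2 ratio to mt-Ta of 1.03, -0.25 and 0.46 in controls and 2.34, 4.84, 5.0 and 4.15 in knockouts. The groups did not overlap and differed by 3.67 (12.8-fold; exact permutation test, p = 0.0571). This ratio holds the changes of both tRNAs. mt-Tw itself had a log2 fold change of 1.15 ± 0.93 (SE), with an edgeR adjusted p of 0.507. The ratio of mt-Ti, the tRNA for isoleucine, to mt-Tq, whose gene it touches, was -3.06, -2.83 and -2.52 in controls and -2.11, -1.61, -1.26 and -1.11 in knockouts. This was a difference of 1.28, again without overlap (p = 0.0571, exact permutation). The ratio of mt-Tm to mt-Tq varied from 1.03 to 3.79 in controls and from 1.86 to 6.93 in knockouts, with overlap (p = 0.314, exact permutation). For mt-Td, the tRNA for aspartate next to mt-Ts1, the ratio to mt-Ts1 was -3.02 ± 0.29 in controls and -3.47 ± 1.37 in knockouts (p = 0.686, exact permutation).

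**Figure D5:**
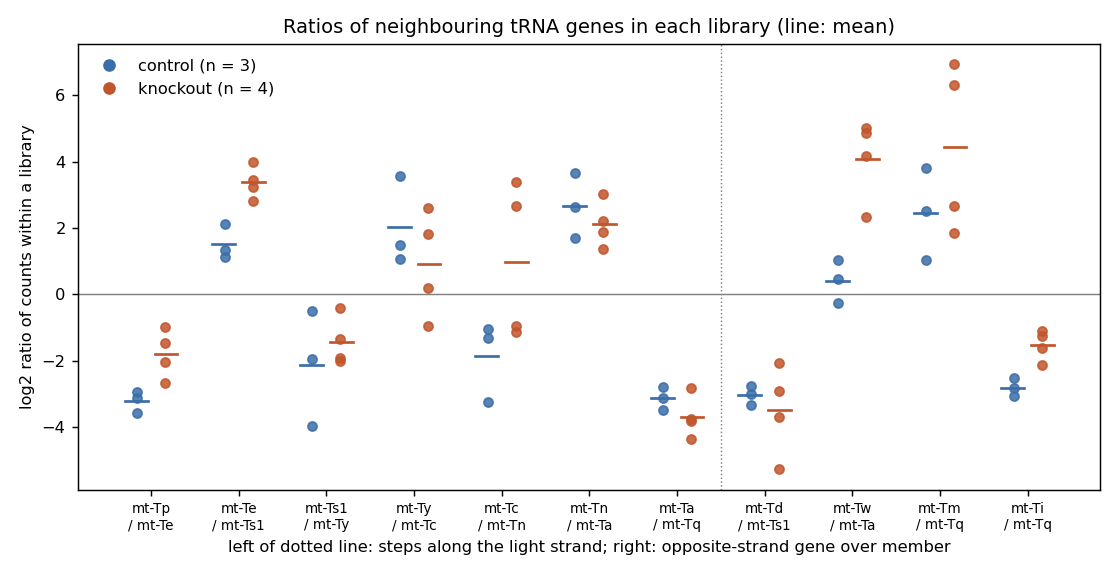
Each point is the log2 ratio of the counts of neighbouring tRNA genes in 1 library (vertical axis), for 7 steps along the light strand and 4 pairs of opposite strands (horizontal axis), with a line at the group mean. Groups separate for mt-Tp to mt-Te, mt-Te to mt-Ts1, mt-Tw to mt-Ta and mt-Ti to mt-Tq, and the ratio of mt-Tc to mt-Tn is above 0 in 2 knockouts only.

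Measured against mt-Te in the same library, all 6 tRNAs were lower in knockouts without overlap, by unequal amounts. Such a separation was not particular to the 6. The share of mt-Te was itself higher without overlap, at 2.03% ± 0.662 in controls and 3.90% ± 1.24 in knockouts. Every tRNA lower in share without overlap, 8 of the other 16 included, must therefore also be lower against mt-Te. The comparison is a description, since mt-Te had a log2 fold change of 1.18 ± 0.68 (SE), with an edgeR adjusted p of 0.339. The log2 difference was -1.85 for mt-Ts1, -2.57 for mt-Ty, -1.47 for mt-Tc, -4.31 for mt-Tn, -3.77 for mt-Ta and -3.21 for mt-Tq. The order does not follow distance from the promoter step by step, since mt-Tc lies between mt-Ty and mt-Tn and had the smallest difference. The 3 tRNAs beyond the origin had the largest ones. In single libraries the log2 ratio of mt-Tn to mt-Te was 1.51, -0.56 and 0.37 in controls 1 to 3 and -1.92, -2.58, -5.0 and -6.0 in knockouts 1 to 4. That of mt-Ta to mt-Te was -2.16, -2.27 and -2.26 in controls, the narrowest range of the 6, and -3.80, -5.60, -7.21 and -7.38 in knockouts. Relative to mt-Nd6, whose counts varied from 353 to 2833 in controls and from 210 to 1321 in knockouts, the groups overlapped for each of the 6.

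In the means, the make-up of the group shifted from mt-Tn, mt-Tq and mt-Ta towards mt-Tc, mt-Ts1 and mt-Ty. mt-Tn supplied 23.2% ± 5.54 (SD, n = 3) of the counts of the 6 tRNAs in controls and 9.93% ± 6.90 (SD, n = 4) in knockouts, and here alone the groups did not overlap (19.1% to 29.5% and 3.77% to 17.8%). mt-Tc supplied 7.02% ± 3.60 and 20.7% ± 15.7, ranging from 7.12% to 39.0% in knockouts. Knockouts 3 and 4 had 28.6% and 39.0%, whereas knockouts 1 and 2, at 8.04% and 7.12%, lay within the controls' range of 3.14% to 10.3%. The share of mt-Ts1 was 7.04% ± 4.46 and 11.8% ± 3.45, that of mt-Ty 27.2% ± 10.6 and 31.4% ± 9.63, that of mt-Tq 31.7% ± 7.55 and 24.0% ± 6.49, and that of mt-Ta 3.86% ± 1.82 and 2.23% ± 1.75.

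Per length, the 6 tRNAs fell into an abundant and a scarce set in controls. On the scale of CPM per kb, mt-Ty had a mean level of 161824 ± 155583 (SD, n = 3), mt-Tq 134633 ± 75410 and mt-Tn 122647 ± 113399, which did not differ beyond their spread. mt-Tc followed at 29235 ± 15668, mt-Ts1 at 23923 ± 6574 and mt-Ta at 14882 ± 5049. In each of the 3 controls and in knockouts 1 and 2 the first 3 were above the other 3. In knockouts 3 and 4 mt-Tn ranked 5 of 6 and mt-Tc 2 and 1. mt-Ta was the lowest in all 7 libraries. Knockout means were 55350 ± 45109 (SD, n = 4) for mt-Ty, 46324 ± 54041 for mt-Tq, 22912 ± 30179 for mt-Tn, 22725 ± 10617 for mt-Tc, 15952 ± 8751 for mt-Ts1 and 5651 ± 8677 for mt-Ta, and among the first 5 in this order neighbours did not differ beyond their spread. mt-Ta was below mt-Ts1 in each knockout. How base modifications and folding of each tRNA affect its capture was not tested.

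Over the 7 libraries the levels of 5 members moved together, while mt-Tc moved less with the rest. Pearson's r between log2 CPM values was 0.80 to 0.99 among the other 5 and 0.38 to 0.49 between mt-Tc and each of them. The mitochondrially encoded RNAs most like the mean of the 6 were mt-Tl2, the leucine tRNA for CUN codons (r = 0.989), mt-Tk, the lysine tRNA (r = 0.980), and mt-Ti (r = 0.965), all of the heavy strand. Of 1469 other genes, Ndufs7, Cox6b1 and Uqcrfs1, which encode subunits of respiratory complexes I, IV and III, had the highest values (r = 0.930, 0.906 and 0.902). These points share library depth and scaling, so the values describe these libraries alone.

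In the authors' deposited table the 6 tRNAs had log2 fold changes from -1.62 (mt-Tn, adjusted p = 0.293, DESeq2) to -0.42 (mt-Tc). The later DESeq2 version run here gave -2.51 for mt-Tn and -0.48 for mt-Tc. Whether the deposited sizes are on the same scale as those given here was not tested. Nuclear genes for the cutting, modification and charging of mitochondrial tRNAs and for replication from the origin could not be compared. Of 35 listed genes 33 were found and 0 had enough counts to test, the highest sums being 19 over controls and 26 over knockouts.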

How the data were processed

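Raw counts per gene were deposited by the authors, 1 table for each of 7 libraries. Per the labels' protocols these came from an Illumina kit for small RNA, read from 1 end on a MiSeq. The submitters' processing notes name mm10 as the build, DESeq2 1.14.1 and R 3.3.2, and as tools cutadapt 1.10, Bowtie2, featureCounts, bedtools and SAMtools 1.3.1, with no step given. How the authors treated strand and reads with several matches, and which annotation they used, is not stated there. The gene types in their tables disagree with the names of many mitochondrial features (mt-Tc is typed as rRNA), so names alone were used. The normalised signal deposited by the authors, which is the count multiplied by 1 factor per library (0.378 to 2.02), was not used further. Per the file headers, the authors' comparison table holds log2 fold changes, a Wald score and p-values.

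All features were fitted by the quasi-likelihood method of edgeR 4.0.16 under R 4.3.3 (2 groups, TMM, minimum count 10), with p-values adjusted by Benjamini-Hochberg over the 1505 genes tested and a threshold of 0.05. Ratios are log2 of counts plus 0.5, and their test is exact and two-sided, a permutation over 35 splits. DESeq2 1.42.0, 4 other scalings, other filters, a covariate, a replicate block and single libraries left out were alternatives. On simulated data the fit recovered 39% of 100 genes with a log2 change of 2 and 63% of 100 with a change of 3. In that test 4 of 106 calls were false. The 6 tRNAs, the gene lists and the tests were chosen with earlier results of these data known. Named were all members, the genes of the 11 ratios, mt-Nd6, mt-Co1, the 3 most alike genes of each kind, and called factors of tRNA maturation. Coordinates and sequences come from GENCODE M21 (GRCm38).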

Additional observations from a re-analysis of the deposited data

Results flagged for a closer look

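In knockout 1, mt-Ta stood at 1284 CPM, far from the 3 other knockouts at 41.9 to 165 CPM. The gap to the nearest of them was 0.901 of the range of the 4 values, above Dixon's 95% critical value for 4 samples. This was the only such case among 24 sets of knockout values examined (levels, ratios, shares and make-up), and chance gives about 1 in 20.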

How the results depend on the processing

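The 105 genes called overall became 11 under scaling to total counts, 53 under scaling to mitochondrially encoded genes, 0 with microRNA genes as the scale (edgeR, 24 with unadjusted p under 0.05), 192 without a filter on low counts, 3 at a minimum count of 30, 178 with DESeq2 and 371 with the composition covariate. Leaving out 1 library gave 0 (without control 2 or control 3, with 395 and 407 at an unadjusted p under 0.05) to 75 (without knockout 1). With the covariate, a combination chosen after seeing the data, it gave 463, 263 and 348 without controls 1 to 3 and 398, 197, 199 and 181 without knockouts 1 to 4. For the 6 tRNAs there were 0 calls with any 1 library left out. The 0 calls became 3 with the covariate, and with the covariate and a library left out together they lay between 0 and 5. The sign turned for mt-Ts1 under scaling to mitochondrially encoded genes (0.28) and for mt-Tc under scaling to total counts (0.53), mitochondrially encoded genes (0.86) and microRNA genes (0.48), and, with the covariate, without control 3 (0.032) or knockout 2 (0.098). The cause was not tested. Same-numbered libraries did not deviate together in every pair (r = 0.530, -0.804 and 0.319 for replicates 1 to 3). The replicate block left 0 genes (338 at an unadjusted p under 0.05, edgeR) and 0 of the 6 tRNAs called. With paired differences of replicates 1 to 3, 6 of 11 ratios had the same sign in each pair. The log2 difference in the share of the 6 tRNAs, -1.87 among mitochondrial tRNA counts, was -0.94 among mitochondrially encoded counts and -1.09 among all counts, and lay between -2.05 and -1.58 with a library left out. Ratios without overlap numbered 4 at a pseudocount of 5. With a library left out they numbered 4 to 6, a count that cannot fall, since groups that are apart stay apart. With a library left out, the exact permutation test of ratios cannot reach 0.05, so no p was taken. Depth did not limit the 6 tRNAs, the lowest count being 104 (mt-Ta, knockout 3).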

Other observations

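Among annotated nuclear transcripts, copies of at least 90% of a tRNA's length at 80% identity or more were found for mt-Tc and mt-Tn alone, both in Cep295 (84.1% and 91.5% identical), a gene with 11 counts over all libraries. Nuclear sequence outside annotated transcripts was not searched.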
